A study of Mus musculus with 6 samples.

Results

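The mitochondrial solute carriers (Slc25a genes) and the genes of the mitochondrial protein import machinery (numbered Timm and Tomm genes) were compared between mice with chronic constriction injury (CCI) and untreated mice. Members were the genes of the deposited table whose symbol begins with Slc25a, with Timm and a digit, or with Tomm and a digit. This gave 72 of 21959 genes, 47 carriers and 25 import genes, and 43 carriers and 22 import genes had enough counts to be tested. RNA was sequenced in bulk from the paraventricular thalamus, which lies along the midline. The labels call the tissue brain, and the design text names the nucleus. There were 3 CCI libraries (replicates 1 to 3) and 3 control libraries (replicates 4 to 6). All mice were wild type by genotype, the CCI mice had the injury, and the labels give the controls no treatment. In CCI, loose ligatures around a peripheral nerve produce lasting pain of nerve origin. No sham operation is named, so the injury and the surgery cannot be told apart. The design text gives 30 mice per group without saying how they were divided among libraries. P-values therefore reflect how these libraries scatter, and part of that scatter may be technical. The labels used here give no age and no time after injury.

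Carriers of the SLC25 family sit mostly in the inner mitochondrial membrane. They exchange nucleotides, phosphate, amino acids, organic acids and cofactors between the cytosol and the matrix. They are made in the cytosol from nuclear genes and are themselves cargo of the import machinery. The receptors Tomm20, Tomm22 and Tomm70a recognise precursor proteins at the outer membrane, and Tomm40 forms the channel. The small Timm8, Timm9, Timm10 and Timm13 chaperones escort hydrophobic precursors, carriers among them, across the intermembrane space. The TIM22 complex inserts carriers into the inner membrane, whereas the TIM23 complex, with Timm50 and Timm44, moves proteins with a presequence towards the matrix. In neurons, carriers link ATP export, glutamate and aspartate exchange and redox shuttles to the demands of firing.

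Each CCI library held 7989139 to 10529886 counts and each control library 12337448 to 15438268, and 7461 of 14259 genes tested passed an adjusted p of 0.05. Levels below are CPM, counts relative to a library total adjusted by TMM, a method that lines up the bulk of genes between libraries, unless FPKM (which also divides by gene length) is named. Control replicate 5 stood apart. It lay below 0.5 times both other controls in 7.81% of the tested genes, in 18.6% of the carriers and in 9.09% of the import genes. It lay above 2 times both in 5.37% of the tested genes, in 2.33% of the carriers and in 9.09% of the import genes. Its log2 ratio to the other controls had a median of -0.35 in carriers, 0.27 in import genes and -0.01 over all genes, so it lay on opposite sides for the compared classes. Marker genes of other regions and cell types moved with the groups. Summed levels of 7 thalamic markers were 1176 to 1931 CPM in CCI and 4475 to 7447 CPM in control, and 6 of the 7 fell. Those of 6 hippocampal and cortical markers were 139.5 to 164.7 CPM in CCI and 50.1 to 62.1 CPM in control, and all 5 that were tested rose. Summed levels of 7 oligodendrocyte markers were 17600 to 23130 CPM in CCI and 6770 to 13570 CPM in control, and 5 of the 7 rose. The 6 neuron markers summed to 3249 to 3582 CPM in CCI and 6844 to 9161 CPM in control, with 1 that rose and 1 that fell. The 4 GABAergic neuron markers all rose, from 47.8 to 74.5 CPM in control to 101.7 to 356.9 CPM in CCI. Astrocyte markers, 8 in number, summed to 2519 to 3343 CPM in CCI and 3425 to 4667 CPM in control, with 2 that rose and 2 that fell. Microglial markers, 6 in number, summed to 124.4 to 167.8 CPM in CCI and 205.1 to 266.7 CPM in control, with 1 that rose and 1 that fell. Sums of 4 markers of the neighbouring habenula overlapped, at 186.5 to 523.4 CPM in CCI and 407.9 to 1554 CPM in control, and 2 of them fell. None of these markers was at 0 in any library. The part of cell and region make-up in the results below was not tested, and in bulk tissue fewer cells of a type and less RNA per cell cannot be told apart.

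More members fell than rose, and the median change was lower in import genes than in carriers, by an amount that depended on 1 control library. Of the 22 tested import genes, 14 (63.6%) fell and 2 (9.09%) rose in CCI by edgeR's quasi-likelihood test. Of the 43 tested carriers, 15 (34.9%) fell and 7 (16.3%) rose. Over all genes tested, 25.3% fell and 27.0% rose, so the share of import genes that fell lay above the background and the shares of carriers lay nearer to it. The median log2 fold change was -0.73 in import genes, -0.13 in carriers and 0.06 over all genes tested. Without control replicate 5 the medians were -0.58 in import genes and -0.41 in carriers, with 17 import genes lower and 2 higher and 19 carriers lower and 8 higher. The share of all genes called in that fit is not given here, so these counts cannot be read against a background. Single members ranged from -2.1 to 0.54 among import genes and from -1.97 to 1.92 among carriers. In 16 import genes and 14 carriers all 3 CCI libraries lay below all 3 control libraries, against 29.4% of all genes. In 2 import genes and 8 carriers they lay above, against 33.6% of all genes. No test was made of one gene class against the other, and members that share a complex are not replicates.

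**Figure D1:**
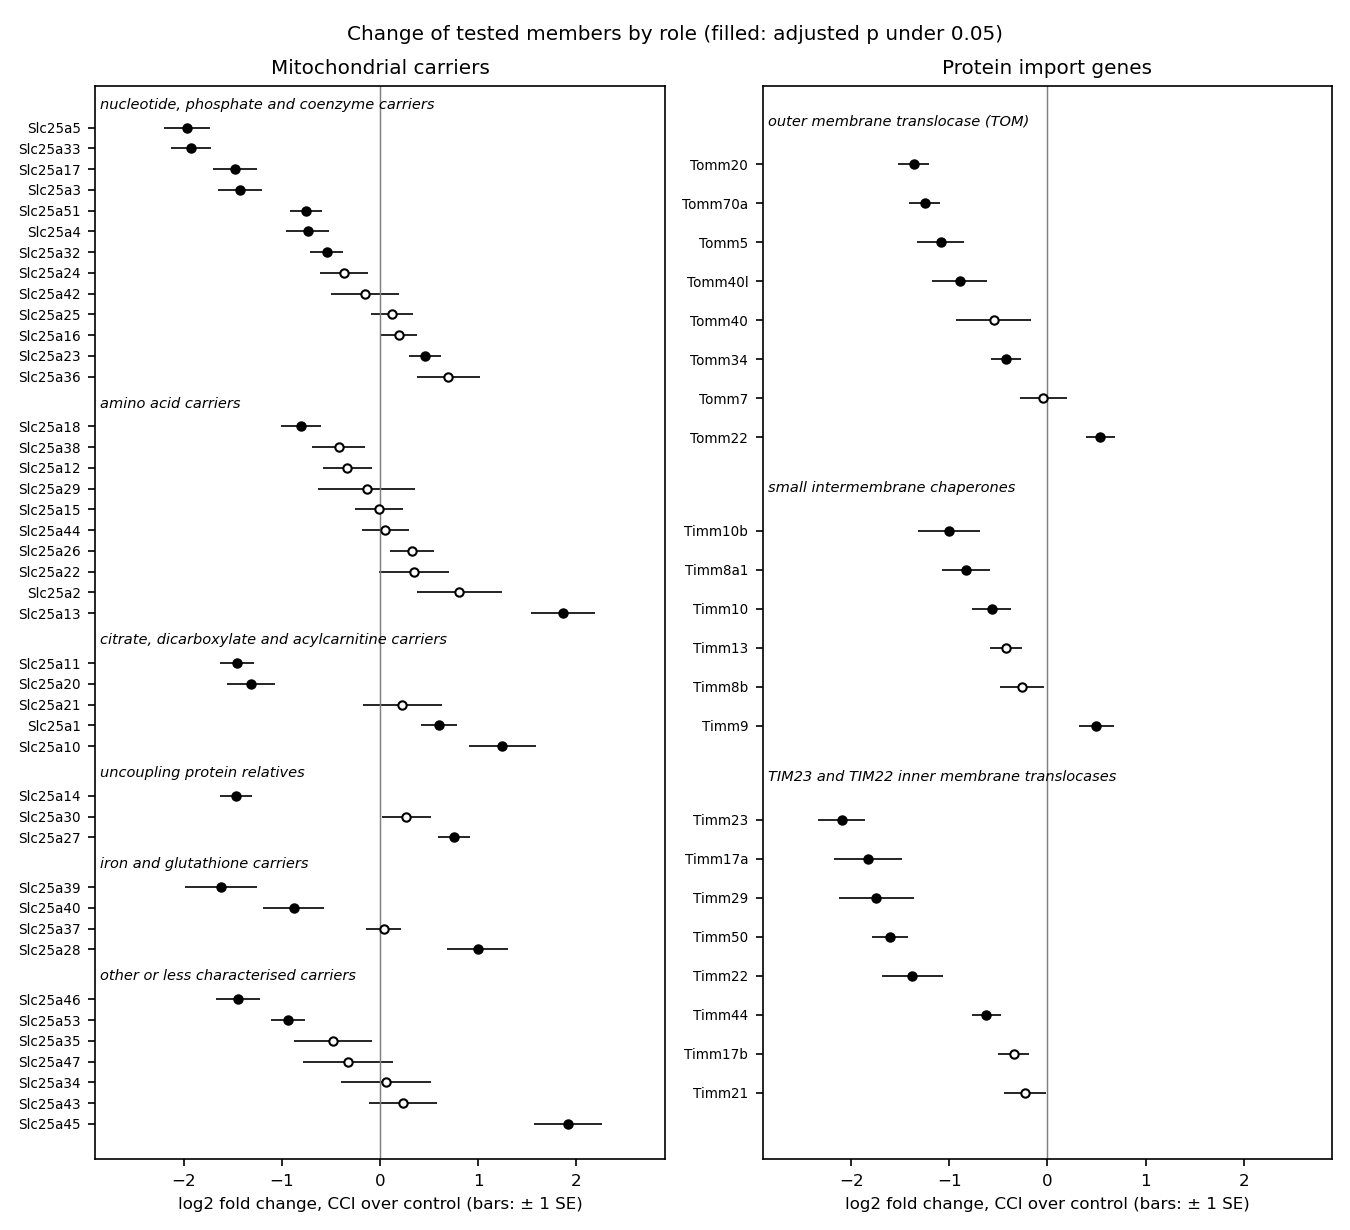
Log2 fold change of CCI over control for the tested carriers (left, 42 of 43 drawn) and import genes (right, all 22), grouped by role, with bars of 1 standard error. Filled points passed an adjusted p of 0.05 by edgeR's quasi-likelihood test, and most filled import genes lie left of 0 while filled carriers lie on both sides.

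These counts depended on the scale. On the deposited FPKM (limma on log2(FPKM + 1)), where the median of all genes was 0.42 and single genes lay higher than on the TMM scale by 0.51 at the median, 14 carriers rose and 8 fell, and 3 import genes rose and 6 fell. The background on that scale was 47.6% higher and 9.64% lower, so the import genes stayed on the low side of it. Medians there were 0.31 for carriers and -0.10 for import genes. With a trend of the change on gene length removed in each library, 6 carriers rose and 13 fell, and 2 import genes rose and 10 fell, against 23.3% and 24.7% of all genes. With trends on length and on mean level both removed, 9 carriers rose and 6 fell, and 6 import genes rose and 6 fell, against 22.6% and 14.4% of all genes. The log2(FPKM + 1) scale ended the calls of the carriers Slc25a4, Slc25a18, Slc25a32, Slc25a39, Slc25a40, Slc25a51 and Slc25a53 and of the import genes Timm8a1, Timm10, Timm10b, Timm29, Timm44, Tomm5, Tomm34 and Tomm40l. With both trends removed, the fall or rise was lost for Slc25a3, Slc25a4, Slc25a5, Slc25a11, Slc25a17, Slc25a18, Slc25a28, Slc25a39, Slc25a46, Slc25a51, Timm8a1, Timm10, Timm10b, Timm22, Timm29, Timm44, Tomm5 and Tomm34. The mean level is taken over the same libraries as the contrast, so this last setting can also take out part of a difference between the groups. In 11 members the direction and the call held in every alternative that tested them. These were Slc25a13, Slc25a27 and Slc25a45, which rose, and Slc25a14, Slc25a20, Slc25a33, Timm17a, Timm23, Timm50, Tomm20 and Tomm70a, which fell. Tomm20 was at the threshold with both trends removed (-0.43, adjusted p = 0.05 after rounding).

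Members that were high were more often lower in CCI, as were genes in general. The median level was 91.8 CPM in tested import genes, 25.3 CPM in carriers and 23.0 CPM over all genes tested. Spearman's rho between the log2 fold change and the mean level was -0.48 over 43 carriers, -0.34 over 22 import genes and -0.44 over all genes, as a description across genes that share the same 6 libraries. The rho with gene length was 0.11 in carriers, -0.29 in import genes and 0.28 over all genes. Median lengths were 3798 bp for carriers, 3105 bp for import genes and 4531 bp for all genes tested. Total depth was lower in every CCI library than in every control library, and its part in these trends was not tested.

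**Figure D2:**
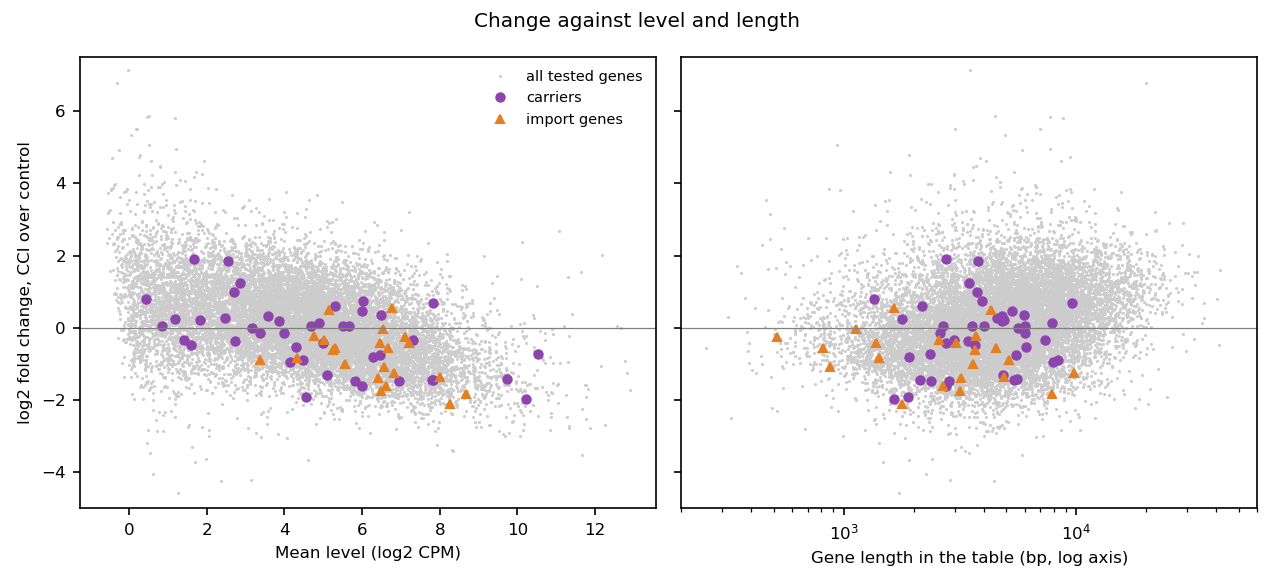
Log2 fold change of CCI over control against mean level (left, log2 CPM) and gene length in the table (right, bp, log axis), with carriers as circles, import genes as triangles and all tested genes as grey dots. The downward slope with level is shared by members (rho -0.52 over 65 members) and all genes (-0.44).

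The inner membrane translocases held the largest falls among import genes. Of the 8 TIM23 and TIM22 genes tested, 6 fell and none rose, against 25.3% and 27.0% of all genes. The median log2 fold change was -1.49. That median was -0.80 on log2(FPKM + 1), where 4 fell and none rose, and -0.58 with length and level trends removed, where 3 fell and none rose. Timm23, the channel-forming subunit of the presequence translocase (chromosome 14, 31902119 to 31923855, GRCm39), stood at 112, 136 and 99.5 CPM in CCI and 389, 638 and 461 CPM in control. Every CCI library lay below every control, and the gene was 4.28-fold lower in CCI (log2 fold change -2.1 ± 0.24, adjusted p = 0.000331, edgeR). Of the stretches of 75 bases in its transcripts, 88.4% also occur in transcripts of other genes that are not in the table, so its counts are uncertain. Timm17a, a partner of Timm23 in the same channel, stood at 177, 187 and 176 CPM in CCI and 400.4, 1033 and 483 CPM in control. The high value of control replicate 5 widened its spread, but the groups did not overlap (log2 fold change -1.83 ± 0.35, adjusted p = 0.00279). Without control replicate 5 its log2 fold change was -1.32 (adjusted p = 1.37e-05).

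Timm50, the receptor that passes presequences to the TIM23 channel, stood at 44.9, 57.1 and 43.9 CPM in CCI and 159, 123 and 160.0 CPM in control. The groups were well separated, with a 3.03-fold lower level in CCI (log2 fold change -1.60 ± 0.18, adjusted p = 0.000331). Timm44, which tethers the matrix import motor, had a smaller difference. It stood at 31.4, 29.2 and 28.6 CPM in CCI and 43.2, 49.8 and 44.4 CPM in control, again with no overlap (log2 fold change -0.62 ± 0.15, adjusted p = 0.00804). Its value was -0.02 (adjusted p = 0.912) on log2(FPKM + 1), and the call was lost. Timm22, the channel of the carrier translocase, stood at 48.3, 52.8 and 39.8 CPM in CCI and 80.1, 189 and 97.3 CPM in control. All CCI libraries were below all controls (log2 fold change -1.38 ± 0.31, adjusted p = 0.0062), and without control replicate 5 the value was -0.95 (adjusted p = 0.000268). Timm29, which joins the TIM22 complex, stood at 36.0, 42.6 and 45.8 CPM in CCI and 181, 58.2 and 177 CPM in control. Here control replicate 5 was the low control, just above the CCI libraries (log2 fold change -1.74 ± 0.38, adjusted p = 0.00551), and without it the value was -2.13 (adjusted p = 1.81e-06). The Timm29 call was lost on log2(FPKM + 1) (-0.94, adjusted p = 0.126) and with both trends removed (-0.88, adjusted p = 0.0964). Timm17b and Timm21 did not pass, with log2 fold changes of -0.34 and -0.23.

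Most tested genes grouped with the outer membrane translocase (TOM) fell, and its central receptor Tomm22 rose. The group includes the cytosolic Tomm34, and the falls of Tomm34 and Tomm40l each depended on single libraries, as given below. Of its 8 tested genes 5 fell and 1 rose, against 25.3% and 27.0% of all genes, with a median log2 fold change of -0.72. With log2(FPKM + 1) 2 fell and 2 rose with a median of -0.01, below the all-gene median on that scale given above. With length and level trends removed 3 fell and 3 rose with a median of 0.06, against 0.12 over all genes. Tomm20, a receptor for presequences, stood at 147, 148 and 136 CPM in CCI and 364, 364 and 379.9 CPM in control. Its libraries were tight within each group and far apart between them, a 2.57-fold lower level in CCI (log2 fold change -1.36 ± 0.16, adjusted p = 0.000357). Tomm70a, the receptor that takes carrier precursors from cytosolic chaperones, stood at 64.5, 65.0 and 69.3 CPM in CCI and 139, 179.7 and 155 CPM in control. It was also clearly separated (log2 fold change -1.25 ± 0.16, adjusted p = 0.000495). Tomm5, a small subunit around the channel, stood at 60.0, 57.5 and 62.6 CPM in CCI and 93.5, 179 and 111 CPM in control (log2 fold change -1.09 ± 0.24, adjusted p = 0.00564), and its value was -0.43 (adjusted p = 0.0642) on log2(FPKM + 1). Tomm22, the receptor that organises the complex, stood at 122, 135 and 127 CPM in CCI and 85.9, 83.3 and 95.5 CPM in control. Each CCI library was above each control by a modest step (log2 fold change 0.54 ± 0.15, adjusted p = 0.0143). The call for Tomm22 was lost without CCI replicate 2 (0.49, adjusted p = 0.0625) and without control replicate 4 (0.48, adjusted p = 0.0589).

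Tomm40, the pore itself, did not pass. It stood at 81.2, 92.5 and 74.5 CPM in CCI and 156, 48.6 and 158 CPM in control, so that control replicate 5 lay below every CCI library and the groups overlapped (log2 fold change -0.55 ± 0.38, adjusted p = 0.255). Without control replicate 5 the value was -0.95 (adjusted p = 7.5e-05), so 1 library decided this call. Its relative Tomm40l fell by 0.90 on the log2 scale (adjusted p = 0.0257, edgeR), and the call was lost when any 1 of the 3 CCI libraries or control replicate 4 was left out. Tomm34, a cytosolic co-chaperone of import, fell by 0.42 (adjusted p = 0.0428) on the TMM scale, but its log2 fold change was 0.17 on log2(FPKM + 1) and 0.52 with both trends removed. That call was also lost without any 1 CCI library or control replicate 6. Tomm7 was not called on the TMM scale (-0.04, adjusted p = 0.891). It was higher by 0.60 (adjusted p = 0.0197) on log2(FPKM + 1), where 47.6% of all genes rose. Tomm6 was listed at 0 in every library. The gene Gm21981 overlaps it on the same strand and shares 74.0% of its 75-base stretches, and its part in the listed 0 was not tested.

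**Figure D3:**
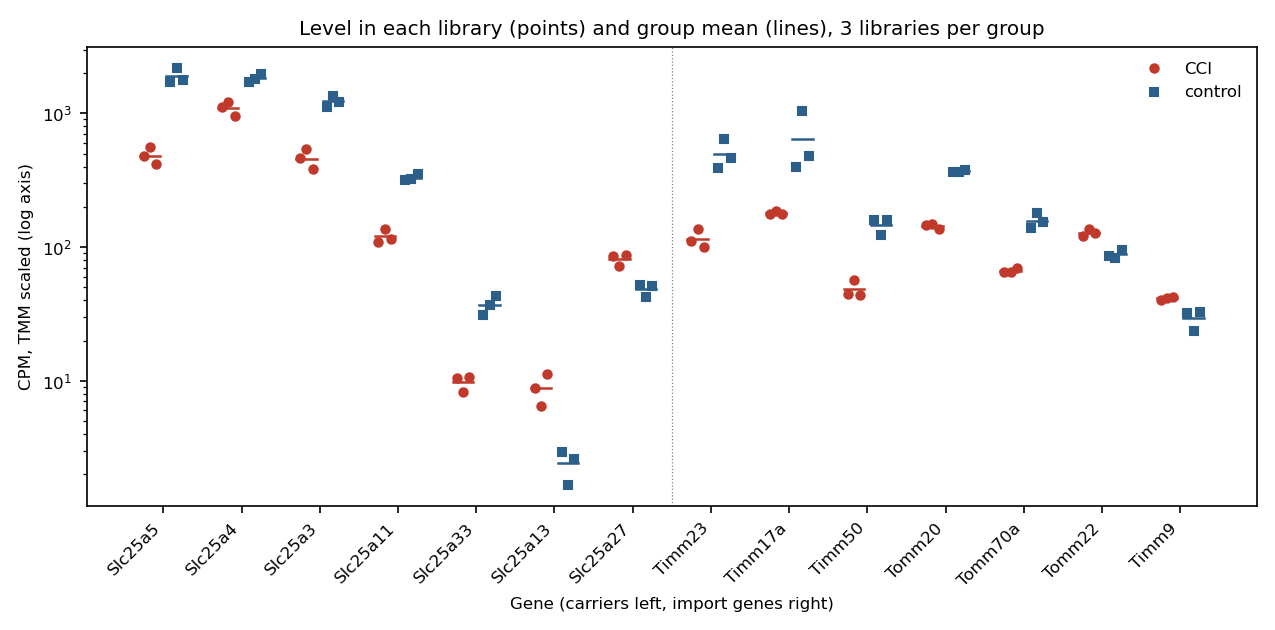
Level of 7 carriers and 7 import genes in each library (TMM-scaled CPM, log axis), with CCI as circles, control as squares and lines at the mean of 3 libraries. Only genes whose groups do not overlap are drawn, so members with overlap, such as Slc25a12, Slc25a22 and Tomm40, are left out. Slc25a13, Slc25a27, Tomm22 and Timm9 are the ones higher in CCI.

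Among the small chaperones of the intermembrane space, 3 of 6 tested fell and 1 rose, against 25.3% and 27.0% of all genes. The median log2 fold change was -0.50. This median turned to 0.12 on log2(FPKM + 1), where none fell and 1 rose, but stayed below the all-gene median on that scale given above. With both trends removed it was 0.37, against 0.12 over all genes, and none fell and 3 rose. Timm9 and Timm10 build a joint chaperone ring that binds carrier precursors. Timm9 stood at 40.4, 41.7 and 42.6 CPM in CCI and 32.1, 23.4 and 32.5 CPM in control. It was 1.41-fold higher in CCI with no overlap (log2 fold change 0.50 ± 0.17, adjusted p = 0.0396), a call lost when any 1 library other than control replicate 5 was left out. Timm10 stood at 29.1, 34.0 and 31.0 CPM in CCI and 36.0, 58.4 and 45.4 CPM in control, lower in every CCI library (log2 fold change -0.57 ± 0.20, adjusted p = 0.0402), but its value was 0.05 on log2(FPKM + 1) and 0.07 with both trends removed. The Timm10 call was lost without any 1 CCI library or control replicate 6. The partners on their shared ring thus moved in opposite directions on the TMM scale.

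Timm8a1 and Timm13 form a second chaperone ring. Timm8a1, whose human counterpart is mutated in a deafness and dystonia syndrome, stood at 12.4, 15.2 and 15.1 CPM in CCI and 21.3, 34.6 and 20.3 CPM in control (log2 fold change -0.83 ± 0.24, adjusted p = 0.0199). The call was lost without CCI replicate 1 or 3, and 39.9% of its 75-base stretches are shared with other transcripts. Timm13 stood at 118, 127 and 132 CPM in CCI and 145, 189 and 171 CPM in control, below in every CCI library but short of the threshold (log2 fold change -0.42 ± 0.16, adjusted p = 0.0554). It passed without control replicate 5 (-0.36, adjusted p = 0.03) and had the opposite sign with both trends removed (0.77, adjusted p = 0.00499). Timm10b fell by 1.01 (adjusted p = 0.0256), with control replicate 5 at 99.6 CPM and the other controls at 44.3 and 43.9 CPM. Without that library it was -0.53 (adjusted p = 0.00457), and the call was lost without any 1 of the CCI libraries. Timm8b was not called on the TMM scale (-0.26, adjusted p = 0.347), with FPKM of 296 ± 47.3 in CCI and 229.5 ± 26.2 in control (SD, n = 3 each). Its sign turned with both trends removed (0.68).

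Promoters of 4 import genes that moved are shown because ETS factors such as GABP are known regulators of nuclear genes for mitochondrial proteins. Each is the 250 bases before the RefSeq start on GRCm38.p6, 5′ to 3′ on the strand of the gene. Capitals mark the exact letters CCGGAAGT, a form of the ETS motif, or their reverse complement ACTTCCGG. Timm23 (chr14:32201892-32202141, minus strand) and Timm29 (chr9:21592472-21592721, plus strand) fell, while Tomm22 (chr15:79670618-79670867, plus strand) and Timm9 (chr12:71136676-71136925, minus strand) rose. These 4 were chosen after their values were seen. Both printed windows of genes that fell hold the motif, whereas most members that fell lack it, so the 4 do not stand for the members in general.
Timm23 upstream of start: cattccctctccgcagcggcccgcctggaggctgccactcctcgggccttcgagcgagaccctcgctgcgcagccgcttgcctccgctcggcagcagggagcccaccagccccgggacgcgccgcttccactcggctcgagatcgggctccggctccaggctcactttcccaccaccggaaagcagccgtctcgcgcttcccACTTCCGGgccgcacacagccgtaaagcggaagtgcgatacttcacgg
Timm29 upstream of start: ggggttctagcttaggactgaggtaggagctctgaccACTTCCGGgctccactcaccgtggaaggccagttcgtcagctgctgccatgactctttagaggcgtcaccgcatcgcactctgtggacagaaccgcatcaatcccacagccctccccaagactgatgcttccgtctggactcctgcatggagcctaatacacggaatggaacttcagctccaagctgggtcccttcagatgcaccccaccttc
Tomm22 upstream of start: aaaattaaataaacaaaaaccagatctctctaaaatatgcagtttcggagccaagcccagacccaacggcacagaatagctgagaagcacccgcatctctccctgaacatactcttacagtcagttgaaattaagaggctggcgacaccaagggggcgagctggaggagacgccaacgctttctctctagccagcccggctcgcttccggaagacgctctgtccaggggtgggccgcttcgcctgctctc
Timm9 upstream of start: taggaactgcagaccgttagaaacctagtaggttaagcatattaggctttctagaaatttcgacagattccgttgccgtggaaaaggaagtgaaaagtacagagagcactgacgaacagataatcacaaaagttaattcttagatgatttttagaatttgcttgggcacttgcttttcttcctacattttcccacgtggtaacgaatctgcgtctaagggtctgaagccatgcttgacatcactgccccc
The motif, searched on both strands, starts at position -48 from the Timm23 start and at -213 from the Timm29 start, and these letters do not occur in the Tomm22 and Timm9 windows. Near matches, such as ccggaaga in the Tomm22 window and aaggaagt in the Timm9 window, were not counted. RefSeq windows were matched for 58 of the 72 members. The motif was in windows of 4 of 22 matched import genes (Timm23, Timm29, Tomm70a and Timm8a2), 1 of 36 carriers (Slc25a20) and 873 of 27025 genes (3.23%). The last set, also used for the NRF1 core below, is every RefSeq gene with a window. It includes genes not tested here, and no share over the tested genes was computed. By call, 4 of 25 matched members that fell and 0 of 8 that rose held it. Among members that fell without it were Timm17a, Timm22, Timm50 and Tomm20. The NRF1 core CGCATGCG, in 1.75% of all genes, was in 1 member window, that of Timm13. A match is a description of the letters and not of binding.

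Nucleotide, phosphate and coenzyme carriers held the most abundant members and more of the 15 carrier falls than any other role. Of 14 tested, 7 fell and 1 rose, against 25.3% and 27.0% of all genes, with a median log2 fold change of -0.45. On log2(FPKM + 1) 4 fell and 3 rose with a median of 0.09, below the all-gene median on that scale given above. Slc25a4 and Slc25a5 are adenine nucleotide translocases, which exchange matrix ATP for cytosolic ADP. Slc25a5 (chromosome X, 36059304 to 36062460, GRCm39) stood at 478, 556 and 418 CPM in CCI and 1718, 2190.0 and 1764 CPM in control. The CCI libraries were far below the controls, 3.91-fold lower (log2 fold change -1.97 ± 0.23, adjusted p = 0.000377), and -1.36 (adjusted p = 0.000467) on log2(FPKM + 1). Of its 75-base stretches 27.9% occur in other transcripts, which are not in the table. With both trends removed Slc25a5 kept its sign and lost the call (-0.42, adjusted p = 0.111).

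Slc25a4, the form known from heart, muscle and brain, stood at 1124, 1210.1 and 962 CPM in CCI and 1727, 1794 and 1972 CPM in control. It was lower in every CCI library on the TMM scale (log2 fold change -0.74 ± 0.22, adjusted p = 0.0212), but the direction depended on the scale. It was -0.14 (adjusted p = 0.533) on log2(FPKM + 1) and 0.80 (adjusted p = 0.0224) with both trends removed, and the TMM call was lost without any 1 CCI library or control replicate 6. Slc25a3, the phosphate carrier that feeds ATP synthase, stood at 461, 537 and 380.4 CPM in CCI and 1122, 1358 and 1225 CPM in control. It was 2.69-fold lower in CCI with wide separation (log2 fold change -1.43 ± 0.22, adjusted p = 0.00112), and -0.38 (adjusted p = 0.128) with both trends removed. These 3 genes together made up 56.5, 58.9 and 52.9% of all carrier counts in CCI and 66.1, 72.3 and 68.4% in control. The share was lower in each CCI library than in each control, and Slc25a5 alone took 13.1, 14.2 and 12.6% in CCI and 24.9, 29.6 and 24.3% in control.

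Cofactor and nucleotide carriers of lower level also differed. Slc25a33, a pyrimidine nucleotide carrier, stood at 10.4, 8.22 and 10.6 CPM in CCI and 31.1, 36.8 and 43.3 CPM in control. It was 3.80-fold lower in CCI with no overlap (log2 fold change -1.92 ± 0.20, adjusted p = 0.000251). Slc25a36, its closest relative and also a pyrimidine nucleotide carrier, stood at 289.7, 282 and 272 CPM in CCI and 121, 279.7 and 119.8 CPM in control, with control replicate 5 at the CCI level. It did not pass (0.70 ± 0.32, adjusted p = 0.0996), and without control replicate 5 it was 1.2 (adjusted p = 1.31e-05). Slc25a17, a peroxisomal carrier of coenzyme A and adenine nucleotides, stood at 59.3, 68.8 and 66.4 CPM in CCI and 145, 243 and 152 CPM in control, lower in every CCI library (log2 fold change -1.47 ± 0.22, adjusted p = 0.00104) and -0.44 (adjusted p = 0.121) with both trends removed.

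Slc25a51, which brings NAD into mitochondria, and Slc25a32, a carrier of folate and FAD, fell by 0.75 and 0.54 on the log2 scale (adjusted p = 0.0058 and 0.0241). On log2(FPKM + 1) they were -0.14 and 0.04, neither past the threshold, and the Slc25a32 call was lost without any 1 library other than control replicate 5. Slc25a23, a calcium-regulated ATP-magnesium and phosphate carrier, stood at 76.1, 66.9 and 78.0 CPM in CCI and 55.3, 45.4 and 60.1 CPM in control (log2 fold change 0.46 ± 0.16, adjusted p = 0.0411). It was above in every CCI library, yet the call held in 5 of 14 alternatives and was lost without any 1 library other than control replicate 5. Its relatives Slc25a24 and Slc25a25 did not pass, at -0.37 and 0.12, nor did the coenzyme A carrier Slc25a42 (-0.15).

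Amino acid carriers mostly did not pass the test. Of 10, 1 rose and 1 fell, against 27.0% and 25.3% of all genes, with a median log2 fold change of 0.02. In log2(FPKM + 1), 3 rose and none fell, against 47.6% and 9.64% of all genes. Slc25a12 and Slc25a13 are the calcium-activated aspartate-glutamate carriers of the malate-aspartate shuttle, Slc25a12 being the main form of neurons. Slc25a13 stood at 8.82, 6.48 and 11.3 CPM in CCI and 2.94, 1.65 and 2.62 CPM in control. It was low throughout and 3.64-fold higher in CCI (log2 fold change 1.86 ± 0.32, adjusted p = 0.00191). Slc25a12 stood at 134, 143 and 144 CPM in CCI and 238, 115 and 179 CPM in control. Its groups overlapped through control replicate 5 (log2 fold change -0.33 ± 0.25, adjusted p = 0.284), and without that library it was -0.59 (adjusted p = 0.00276). Slc25a12 stayed the far higher member of the pair in both groups.

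Slc25a22 and Slc25a18 carry glutamate into mitochondria. Slc25a18, known as the astrocyte-enriched form, stood at 61.7, 60.0 and 46.5 CPM in CCI and 111, 74.3 and 107 CPM in control. Every CCI library was below every control (log2 fold change -0.80 ± 0.20, adjusted p = 0.0104). This too depended on the scale, with -0.19 (adjusted p = 0.574) on log2(FPKM + 1) and 0.15 (adjusted p = 0.624) with both trends removed. Slc25a22 stood at 93.6, 108 and 98.2 CPM in CCI and 106, 33.6 and 96.0 CPM in control, where control replicate 5 was the lowest of all libraries and the groups overlapped (log2 fold change 0.35 ± 0.36, adjusted p = 0.437). Without that library Slc25a22 was -0.03 (adjusted p = 0.804). The carriers of ornithine (Slc25a15, -0.01), branched-chain amino acids (Slc25a44, 0.06), S-adenosylmethionine (Slc25a26, 0.33), glycine (Slc25a38, -0.42) and basic amino acids (Slc25a29, -0.13) did not pass on the TMM scale.

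Organic acid carriers moved both ways, 2 of 5 higher and 2 lower, against 27.0% and 25.3% of all genes. Slc25a11, the oxoglutarate-malate carrier that works with Slc25a12 in the malate-aspartate shuttle, stood at 109.5, 137 and 116 CPM in CCI and 317, 321 and 355 CPM in control. It was 2.74-fold lower in CCI, with both groups tight (log2 fold change -1.45 ± 0.17, adjusted p = 0.000368), and -0.20 (adjusted p = 0.358) with both trends removed. Slc25a20, which brings acylcarnitines in for fatty acid oxidation, stood at 22.5, 20.4 and 15.9 CPM in CCI and 44.9, 64.9 and 36.5 CPM in control and also fell (log2 fold change -1.31 ± 0.25, adjusted p = 0.00264). Slc25a1, the citrate exporter, stood at 53.0, 46.4 and 43.9 CPM in CCI and 37.1, 25.5 and 31.6 CPM in control, above in every CCI library (log2 fold change 0.60 ± 0.18, adjusted p = 0.0224). That call was lost when CCI replicate 1, CCI replicate 2 or control replicate 6 was left out. Slc25a10, the dicarboxylate carrier, stood at 9.32, 10.8 and 9.55 CPM in CCI and 5.18, 2.01 and 5.09 CPM in control (log2 fold change 1.25 ± 0.34, adjusted p = 0.0144), a call lost without CCI replicate 2 (1.18, adjusted p = 0.0504).

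The brain relatives of the uncoupling proteins split. Slc25a14 stood at 32.4, 29.5 and 28.4 CPM in CCI and 73.8, 97.5 and 78.2 CPM in control and was 2.77-fold lower in CCI (log2 fold change -1.47 ± 0.17, adjusted p = 0.000308). Slc25a27 stood at 85.7, 72.8 and 87.1 CPM in CCI and 52.2, 42.0 and 51.2 CPM in control and was 1.69-fold higher (log2 fold change 0.76 ± 0.16, adjusted p = 0.00462). Neither gene's groups overlapped, and both calls held in all 14 alternatives. Slc25a30 did not pass (0.27).

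Of the iron and glutathione carriers, 2 of 4 fell and 1 rose, against 25.3% and 27.0% of all genes. On log2(FPKM + 1), where 47.6% of all genes rose and 9.64% fell, none of the 4 fell and 2 rose (Slc25a28 and Slc25a37). Slc25a39, a glutathione carrier, stood at 27.5, 27.8 and 38.8 CPM in CCI and 128, 43.9 and 117 CPM in control. Control replicate 5 was close to the CCI libraries (log2 fold change -1.62 ± 0.37, adjusted p = 0.0064), and without it the value was -1.98 (adjusted p = 4.12e-06). It was -0.85 (adjusted p = 0.143) on log2(FPKM + 1). Its relative Slc25a40 fell by 0.88 (adjusted p = 0.0396) although its groups overlapped, and the call was lost when CCI replicate 2 or 3, or control replicate 4 or 6, was left out. Slc25a28, the iron carrier mitoferrin 2, stood at 7.82, 5.84 and 11.6 CPM in CCI and 3.66, 5.08 and 4.04 CPM in control (log2 fold change 0.99 ± 0.31, adjusted p = 0.0258), a call lost when CCI replicate 1 or 3, or control replicate 4 or 6, was left out. Mitoferrin 1, Slc25a37, was at 0.04 (adjusted p = 0.865).

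Among 7 other or less characterised carriers 1 rose and 2 fell, against 27.0% and 25.3% of all genes. On log2(FPKM + 1), where 47.6% of all genes rose and 9.64% fell, 2 rose and 1 fell. Slc25a46, an outer membrane protein linked to mitochondrial shape and to inherited neuropathy, stood at 132, 125 and 103 CPM in CCI and 364, 235 and 378 CPM in control and was 2.72-fold lower in CCI (log2 fold change -1.44 ± 0.23, adjusted p = 0.00116). With both trends removed it was -0.64 (adjusted p = 0.0653). Slc25a53 fell by 0.94 on the log2 scale (adjusted p = 0.00241) and was -0.24 (adjusted p = 0.201) on log2(FPKM + 1). Slc25a45 stood at 4.41, 4.38 and 5.32 CPM in CCI and 1.43, 0.709 and 1.5 CPM in control. It was low in every library and 3.77-fold higher in CCI (log2 fold change 1.92 ± 0.35, adjusted p = 0.00227), the furthest rise among the 65 tested members. Slc25a34, Slc25a35, Slc25a43 and Slc25a47, all below 5 CPM, did not pass.

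The 7 members without enough counts for a test were 4 carriers and 3 import genes. Slc25a31, a testis form of the adenine nucleotide translocase, had 3, 8 and 5 counts in CCI and 20, 4 and 7 in control. Slc25a48 had 4, 15 and 8 counts in CCI and 2, 0 and 2 in control. Slc25a41 summed to 4 and 2 counts over the CCI and control libraries, Slc25a54 to 9 and 6, Tomm20l to 20 and 10 and Timm8a2 to 4 and 0. Tomm6 was at 0 throughout.

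Ratios of related genes within a library do not depend on how libraries are scaled to each other. In 11 of 15 pairs the 3 CCI ratios of FPKM lay entirely on one side of the 3 control ratios, 5 above and 6 below. Such a share was not computed for other gene pairs, so it is not known whether this count is unusual. Of single tested genes, 33.6% lay above and 29.4% below without overlap in CPM. With 3 against 3 libraries the smallest two-sided exact permutation p is 0.1, so no pair could pass, and the separated pairs all had p = 0.1 (0.136 adjusted over the 15 pairs). The ratio of Slc25a4 to Slc25a5 was 1.65, 1.52 and 1.61 in CCI and 0.703, 0.573 and 0.782 in control. By FPKM, Slc25a5 was the higher of these translocases in every control and Slc25a4 in every CCI library. The order in control depended on dividing by gene length. By CPM, Slc25a4 was the higher in control replicates 4 (1727 against 1718) and 6 (1972 against 1764) and the lower in control replicate 5 (1794 against 2190). Slc25a5 stood at 363, 408 and 313 FPKM in CCI and 939, 912 and 928 FPKM in control, and Slc25a4 at 597, 622 and 504 FPKM in CCI and 660.5, 523 and 726 FPKM in control.

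The ratio of Slc25a12 to Slc25a13 was 7.89, 11.4 and 6.59 in CCI and 41.7, 36.0 and 35.4 in control, and that of Slc25a14 to Slc25a27 was 0.629, 0.675 and 0.542 in CCI and 2.35, 3.87 and 2.54 in control. Slc25a14 was the higher of the uncoupling relatives in each control and the lower in each CCI library. The ratio of Slc25a33 to Slc25a36 was 0.183, 0.148 and 0.199 in CCI and 1.31, 0.668 and 1.84 in control, the widest gap of the 15 pairs, at -2.74 on the log2 scale. The glutamate carrier ratio, Slc25a22 to Slc25a18, was 0.484, 0.575 and 0.674 in CCI and 0.302, 0.144 and 0.285 in control. For the mitoferrins, Slc25a28 to Slc25a37, it was 0.531, 0.374 and 0.663 in CCI and 0.276, 0.285 and 0.259 in control. Both lay higher in CCI without overlap.

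Ratios of import genes also lay apart. The ratio of Timm17a to Timm17b was 1.94, 2.02 and 2.19 in CCI and 3.72, 9.73 and 4.0 in control, lower in CCI. Timm23 to Timm22, the channels of the presequence and carrier translocases, was 4.12, 4.61 and 4.45 in CCI and 8.66, 6.02 and 8.45 in control, also lower. Timm44 to Timm50 was 0.512, 0.375 and 0.477 in CCI and 0.199, 0.296 and 0.203 in control and Timm9 to Timm10 was 0.265, 0.234 and 0.261 in CCI and 0.170, 0.0763 and 0.136 in control, both higher in CCI. Timm8a1 to Timm8b was 0.0417, 0.0471 and 0.0375 in CCI and 0.0661, 0.0651 and 0.0543 in control. The ratios of Tomm20 to Tomm70a, Tomm40 to Tomm40l, Slc25a23 to Slc25a25 and Slc25a39 to Slc25a40 overlapped between the groups.

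**Figure D4:**
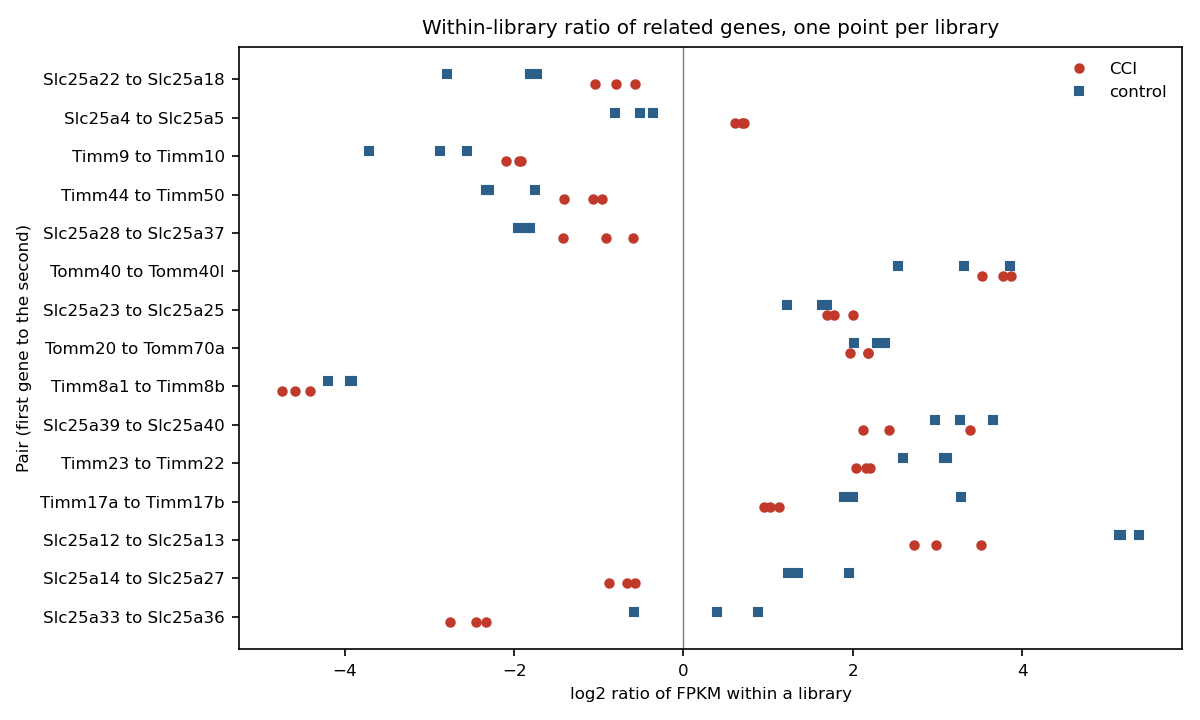
Log2 ratio of FPKM of related genes within each library, with CCI as circles and control as squares, 3 libraries per group. The Slc25a4 to Slc25a5 ratio is above 0 in every CCI library and below 0 in every control, and the Slc25a14 to Slc25a27 ratio shows the reverse. The side of 0 depends on gene length, and by CPM Slc25a4 exceeds Slc25a5 in control replicates 4 and 6.

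Set against each other within a library, the gene classes gave overlapping values in CCI and control. The median log2 CPM of import genes exceeded that of carriers by 1.28, 1.49 and 1.76 in CCI and by 1.53, 2.2 and 1.62 in control. These ranges overlap, and the mean difference between the groups was -0.28, or -0.07 without control replicate 5. On log2(FPKM + 1) the gap was 1.73, 2.1 and 1.65 in CCI and 1.95, 2.77 and 2.45 in control, again with overlap. Summed over members, carriers took 3328 to 3909 CPM in CCI and 6908 to 7392 CPM in control, and import genes took 1482 to 1602 and 2735 to 3870 CPM. Both sums were lower in every CCI library.

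Genes that work with the members were read from 3 further lists. Of 23 import partners outside the rule, 17 fell and none rose, against 25.3% and 27.0% of all genes, with a median log2 fold change of -0.97. On log2(FPKM + 1) 6 fell and 2 rose, against 9.64% and 47.6% of all genes, with a median of -0.29. Chchd4, which oxidises cysteine proteins in the intermembrane space, the small Timm chaperones among them, stood at 69.6 ± 12.8 CPM in CCI against 244 ± 38.3 CPM in control (SD, n = 3 each, log2 fold change -1.81 ± 0.20, adjusted p = 0.000309). Mtx2, of the outer membrane sorting machinery, stood at 84.1 ± 10.1 CPM in CCI against 219.7 ± 23.9 CPM in control (SD, n = 3 each, log2 fold change -1.38 ± 0.17, adjusted p = 0.000453). Pmpca, a subunit of the protease that removes presequences, stood at 58.6 ± 10.1 CPM in CCI against 194 ± 43.1 CPM in control (SD, n = 3 each, log2 fold change -1.72 ± 0.22, adjusted p = 0.000526). Mipep, which trims some of the cleaved precursors further, stood at 10.3 ± 0.960 CPM in CCI against 32.2 ± 7.05 CPM in control (SD, n = 3 each, log2 fold change -1.64 ± 0.21, adjusted p = 0.000552). All 4 were lower in CCI.

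Of 15 tested carrier relatives and other solute channels, 10 fell and 2 rose, against 25.3% and 27.0% of all genes, with a median of -0.79. On log2(FPKM + 1) 5 fell and 2 rose, against 9.64% and 47.6% of all genes, with a median of -0.14. Mtch2, a divergent SLC25 relative that inserts proteins into the outer membrane, stood at 194 ± 7.71 CPM in CCI against 475 ± 25.4 CPM in control (SD, n = 3 each, log2 fold change -1.29 ± 0.17, adjusted p = 0.000526). Vdac2, an outer membrane channel for metabolites, stood at 347 ± 58.8 CPM in CCI against 1069.6 ± 203 CPM in control (SD, n = 3 each, log2 fold change -1.62 ± 0.24, adjusted p = 0.000872). The sideroflexins Sfxn3 and Sfxn5, inner membrane transporters of another family, fell by 1.55 and 1.75 on the log2 scale (adjusted p = 0.000955 and 0.00119). Sfxn1 and Sfxn4 of that family fell by 0.61 and 0.64, while Sfxn2 rose by 1.72 (adjusted p = 0.00418, edgeR). Of 12 regulators of mitochondrial biogenesis tested, 7 rose and 2 fell, with a median of 0.66, against 27.0% and 25.3% of all genes. On log2(FPKM + 1) 9 rose and none fell, against 47.6% and 9.64% of all genes, so that the fall of Gabpb1 given next was not called there. Ppargc1a, the coactivator PGC-1 alpha, stood at 63.6 ± 4.70 CPM in CCI against 27.1 ± 3.33 CPM in control (SD, n = 3 each, log2 fold change 1.23 ± 0.16, adjusted p = 0.000545). Its relative Pprc1 and the factor Yy1 rose by 1.36 and 0.88 (adjusted p = 0.00189 and 0.0037), while Gabpb1, a subunit of GABP, fell by 1.07 (adjusted p = 0.00329).

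Among members, 22 overlap another gene of the table, mostly on the opposite strand, and the strand setting of the counting is not given in the sources used here. Reads of Timm29 and Yipf2, Slc25a11 and Rnf167, Tomm70a and Nit2, Slc25a18 and Atp6v1e1, Slc25a23 and Crb3, and Timm9 and Tomm20l may therefore not be told apart where they overlap. Timm10b overlaps Gm45799 on its own strand.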

How the data were processed

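RNA was sequenced in 6 libraries of mouse paraventricular thalamus, 3 per group, and grouping follows the labels. Per the labels' protocols, poly-A RNA was primed with random oligonucleotides. Per the submitters' processing notes the build was GRCm39 and the tools were HISAT2 2.1.0, StringTie 2.2.1, HTSeq 0.9.1, fastp 0.22.0 and DESeq 1.38.3. The authors deposited a whole-number read count and an FPKM value per gene and library, per the file headers. Each deposited FPKM equals its count divided by Length and library total, which was checked.

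Counts were tested with edgeR 4.0.16 (R 4.3.3, TMM, filterByExpr, quasi-likelihood F-test) over 14259 genes, adjusted by Benjamini and Hochberg, with a threshold of 0.05. Standard errors were taken as the size of the log2 fold change over the root of F. Of the table's genes, 51 have no symbol. Pair ratios used FPKM and exact two-sided permutation (Slc25a51 with Slc25a52 was not analysed here). Alternatives were DESeq2 1.42.0 (size factors and Wald test), no filter, at least 10 CPM in 3 libraries, limma 3.58.1 on log2(FPKM + 1) and log2(FPKM + 0.1), spline trends (5 degrees of freedom) on Length or on Length and level taken out per library, and each library left out. Tables and figures used scipy 1.17.1, pandas 2.3.3 and numpy 2.4.6 in Python 3.11.15. The code was tested on simulated data. Shared stretches and overlaps came from GENCODE M21 and the table, promoters from RefSeq GRCm38.p6.

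Members and lists were chosen with earlier results of these data known. Values in every library are given for members that passed without overlap, up to 8 rises and 8 falls per class, and for a fixed set of members with well known roles. Of the further lists, the 4 genes with the smallest p were named, and Sfxn1, Sfxn2 and Sfxn4 were added to complete their family. Some members are named in addition because of their values. For 1 tested carrier, counted in the totals, no value of its own is reported here.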

Additional observations from a re-analysis of the deposited data

How the results depend on the processing

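No paired analysis was possible because the groups share no replicate numbers (1 to 3 in CCI, 4 to 6 in control). The main values were 7 carriers higher and 15 lower, 2 import genes higher and 14 lower, and medians of -0.13 and -0.73. Import genes higher were 1 with DESeq2 size factors, with the DESeq2 Wald test and without a filter, none of which changed a direction. With the stricter filter 4 carriers were higher and the import median was -0.59. With the length trend removed the import median was -0.50. With length and level trends removed, 6 import genes were higher and 6 lower, 6 carriers were lower, and the import median was -0.090. On log2(FPKM + 1) and log2(FPKM + 0.1), 14 and 13 carriers were higher, with 8 lower on each, and 6 import genes were lower on each. The carrier median turned to 0.31 and 0.57 there, and the import median was -0.10 and -0.11. Both log2(FPKM + 1) medians lay below that of all genes on the same scale. Leaving out 1 library gave 4 to 8 carriers higher, 0 to 2 import genes higher, 9 to 17 import genes lower (9 without CCI replicate 1 or 3), a carrier median of -0.41 to 0.017 (0.017 without control replicate 6) and an import median of -0.80 to -0.58. The share of all genes called in each of these fits is not given here, so these counts have no background beside them. The carrier -0.41 and the import -0.58 both came without control replicate 5, the library whose omission brought the medians closest. Among genes called in the main or the alternative fit, those that reversed with both trends removed were Slc25a18 (0.15), Slc25a4 (0.80), Tomm34 (0.52), Timm13 (0.77), Timm10 (0.071), Tomm7 (1.04) and Timm8b (0.68). On log2(FPKM + 1) and log2(FPKM + 0.1) they were Slc25a32 (0.041 and 0.056), Tomm34 (0.17 and 0.18), Timm10 (0.053 and 0.054) and Tomm7 (0.60 and 0.61). On log2(FPKM + 1), Slc25a32, Tomm34 and Timm10 lay below the all-gene median given above, and Tomm7 lay above it. No gene called in either fit reversed in the other 11 settings, and further sign changes were in genes called in neither. Apart from fewer libraries or genes tested, the cause was not tested. Leaving out a library cannot test the separated pair ratios. Members below 5 CPM, such as Slc25a45, rest on few counts, and CCI libraries were the shallower ones.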
